A study of Takifugu alboplumbeus with 24 samples.

Results

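Grass puffers (Takifugu alboplumbeus) taken at spring tide were compared with those taken at neap tide within the first of 2 lunar cycles sampled in 2020. The comparison takes 12 of the 24 libraries of the study, chosen by sampling date alone: 6 of spring tide, which are the 3 libraries of New moon May and the 3 of Full moon June, and 6 of neap tide, which are the 3 of Waxing moon May and the 3 of Waning moon June. All groups share the same source: wild males caught at the spawning site Minamichita in Japan, brought live to the laboratory, with the tissue taken at around 19:00 JST and no other treatment named. Each library was made from a tissue piece that joins the pituitary and hypothalamus with the underside of the telencephalon. The labels give no age or genotype and do not say how many animals went into a library. A library is treated as 1 fish in what follows, and p-values measure the spread between libraries. The deposited values are FPKM, fragment numbers scaled to transcript length and library size. Differences are between means of log2(FPKM + 1), a scale that understates changes of genes near or under 1 FPKM. Of 24935 genes and transcripts, 17058 had a mean of at least 1 FPKM over the 24 libraries and were tested. The study's stated purpose was to compare expression between the tides.

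The grass puffer spawns on beaches in the days around the new and full moon, when the tidal range is largest. In fish, neurons of the hypothalamus that make gonadotropin-releasing hormone (gnrh1) end on the pituitary, where they drive the release of luteinizing and follicle-stimulating hormone. Each of these gonadotropins is a pair of a shared alpha subunit (cga) and its own beta subunit (lhb or fshb). Circadian clock genes, which keep daily time through a loop of activators and repressors, are expressed in brain and pituitary as well.

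The tide was shared by all fish of a date, so each tide is represented by 2 dates in this cycle. Anything else that differed between those dates cannot be told apart from the tide. With 4 dates there are 6 ways to assign 2 of them to spring tide, so an exact two-sided permutation test over the dates cannot go below p = 0.333, and the tests below take the spread between dates from all 8 dates of the study.

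Markers of the 3 labelled regions were found in every fish. None of the 14 pituitary, 13 hypothalamic or 8 telencephalic marker genes was at 0 in all 12 fish. The summed level of the telencephalic markers was similar over the dates, 84.6 to 151 FPKM in the spring fish and 103 to 132 FPKM in the neap fish. The hypothalamic sum varied more, from 80.6 to 1093 FPKM and from 123 to 1524 FPKM. The pituitary markers were uneven: their sum was 20128 to 53177 FPKM in the spring fish and 500.1 to 33940.1 FPKM in the neap fish. The lowest of these sums belongs to fish 2 of Waxing moon May, and the next lowest neap fish had 12477 FPKM.

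The mean log2(FPKM + 1) of 8 hormone genes (lhb, fshb, cga, gh1, prl, pomc, tshb and the somatolactin gene) was used as the level of pituitary hormone transcripts. It was 11.3, 11.4 and 10.6 in the fish of New moon May, and 10.9, 11.2 and 10.1 in those of Full moon June. At Waxing moon May it was 10.7, 4.54 and 10.4, and at Waning moon June 9.07, 9.59 and 10.2. Fish 2 of Waxing moon May was far below all others, fish 1 and 2 of Waning moon June were next, and the other 3 neap fish lay within the range of the spring fish. The spring mean exceeded the neap mean by 1.83, and by 0.83 without fish 2 of Waxing moon May, against a pooled SD within dates of 1.79 with that fish and 0.495 without it. In a whole tissue piece, fewer pituitary cells and less RNA per cell cannot be told apart.

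Waning moon June stood apart from the other dates in several measures. Its FPKM sum was 443 to 455 kFPKM per library (kilo-FPKM), against 479.6 to 523 kFPKM in the other 9 fish. On the first principal component of the 12 fish, which held 25.0% of the variance, its fish scored 23.9 to 35.1 and the other 9 fish -31.9 to 4.30. The summed level of 6 red blood cell markers was 784 to 2143 FPKM at Waning moon June and 2079 to 4121 FPKM at the other dates. The part of these differences in the results below was not tested. Some results also carry a value with the library sum or the pituitary level as a covariate. Among the 12 fish this sum sets Waning moon June fully apart, so values adjusted for it cannot separate sum from date. The pituitary covariate, which leaves out the gonadotropin genes, was 4.06 in fish 2 of Waxing moon May and 8.53 to 10.55 in the others. A fit with this covariate and without that fish was not tested.

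**Figure D1:**
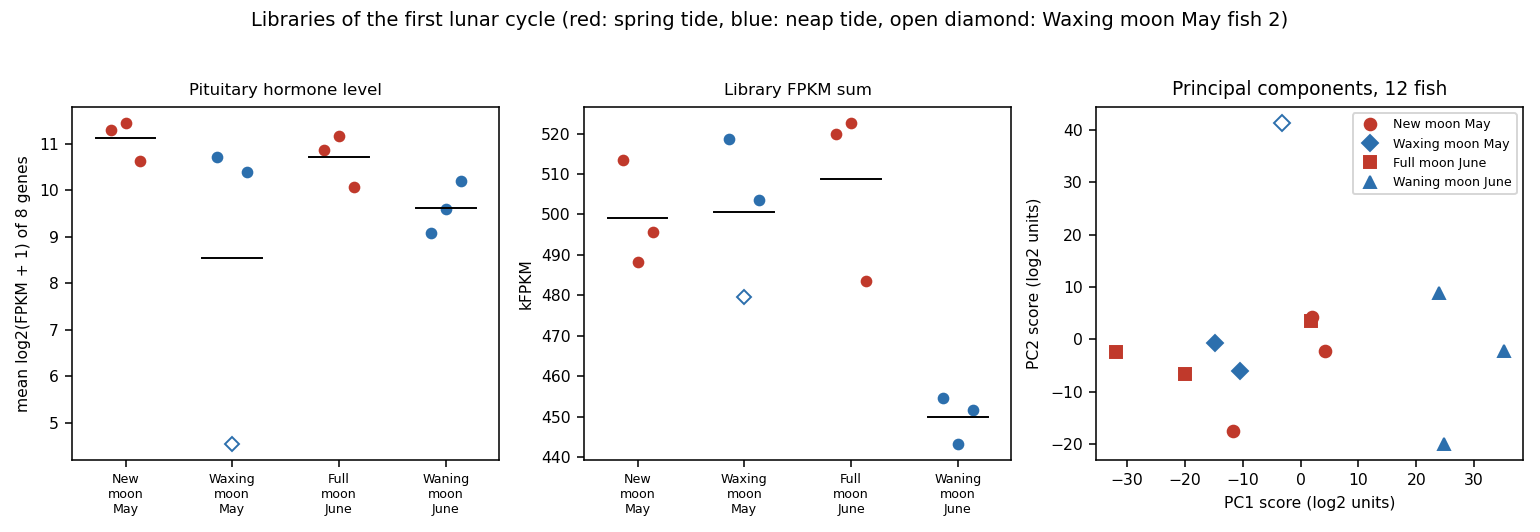
Left and middle: mean log2(FPKM + 1) of the 8 pituitary hormone genes, and the FPKM sum of each library in kFPKM, by sampling date; each point is 1 fish and each bar the mean of 3. Right: scores of the 12 fish on the first 2 principal components; fish 2 of Waxing moon May (open diamond) scores 41.4 on the second, and the Waning moon June fish lie at 23.9 to 35.1 on the first.

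No gene passed the test of spring against neap tide in the first lunar cycle. In the limma fit with the date as a random block, 0 of 17058 genes were higher (0%) and 0 lower (0%) at an adjusted p under 0.05, and the smallest adjusted p was 0.467. At an unadjusted p under 0.05, 227 genes were higher at spring tide (1.33% of those tested) and 465 lower (2.73%). Without fish 2 of Waxing moon May again no gene passed, and 200 genes (1.17%) and 456 (2.67%) had an unadjusted p under 0.05. Over all genes tested, 7107 had a higher mean at spring tide and 9951 a lower one, and the median difference was -0.03 on the log2 scale.

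Less of the variation between these 12 fish lay between the tides than between the dates of a tide. Per gene, the share of the sum of squares lying between the tides had a median of 7.69% and a mean of 12.5%, and it uses 9.09% of the degrees of freedom. The dates within a tide took a median of 28.8% and a mean of 31.2% (18.2% of the degrees of freedom), and the fish within a date 56.9% and 56.3% (72.7%). In the second lunar cycle the share between the tides had a median of 23.6% and a mean of 28.2%. Libraries of opposite tides were no less alike than libraries of the same tide and another date, with median correlations across genes of 0.965 and 0.962, and 0.973 within a date.

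Treating the dates as fixed, so that only the spread between fish of a date counts, gave 93 genes higher at spring tide (0.545% of those tested) and 186 lower (1.09%) at an adjusted p under 0.05 in limma. That fit compares the mean of these 2 spring dates with the mean of these 2 neap dates. It cannot say whether the tides differ beyond these dates. Without fish 2 of Waxing moon May it gave 23 genes (0.135%) and 42 (0.246%). In 29 genes all 6 spring fish lay above all 6 neap fish (0.17% of those tested), and in 63 all lay below (0.369%). Against the 5 other neap fish these numbers were 53 (0.311%) and 93 (0.545%), and leaving out a fish cannot lower them.

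The counts between single dates did not follow the tides. In limma with dates as fixed groups, the neighbouring dates New moon May and Waxing moon May, of opposite tides, differed in 1 gene higher (0.00586%) and 2 lower (0.0117%) at New moon May. Full moon June and Waxing moon May, again of opposite tides, differed in 9 genes higher (0.0528%) and 17 lower (0.0997%) at Full moon June. The 2 spring dates differed from each other in more genes than that, with 58 higher (0.34%) and 176 lower (1.03%) at New moon May. Waxing moon May, a neap date, thus differed from each spring date in fewer genes than the spring dates did from each other. The spread is pooled over all dates, so the low fish of Waxing moon May widens it in every pair for genes in which that fish is extreme. For cga between New moon May and Waning moon June the SE in limma was 1.04 with that fish and 0.43 without it. Not every gene was affected: for itga1, described below, it was 0.102 with and 0.105 without that fish.

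Every comparison with Waning moon June called many more genes. New moon May against Waning moon June gave 409 genes higher (2.4%) and 1202 lower (7.05%), and Full moon June against Waning moon June gave 1050 (6.16%) and 1589 (9.32%). The 2 neap dates differed in 783 genes higher (4.59%) and 1122 lower (6.58%) at Waxing moon May. These comparisons share dates, so their counts are not independent. Without fish 2 of Waxing moon May, that date against the spring date New moon May gave 0 genes in either direction (0%). Full moon June against the 2 remaining fish then gave 2 higher (0.0117%) and 6 lower (0.0352%), and the neap pair 518 (3.04%) and 812 (4.76%).

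**Figure D2:**
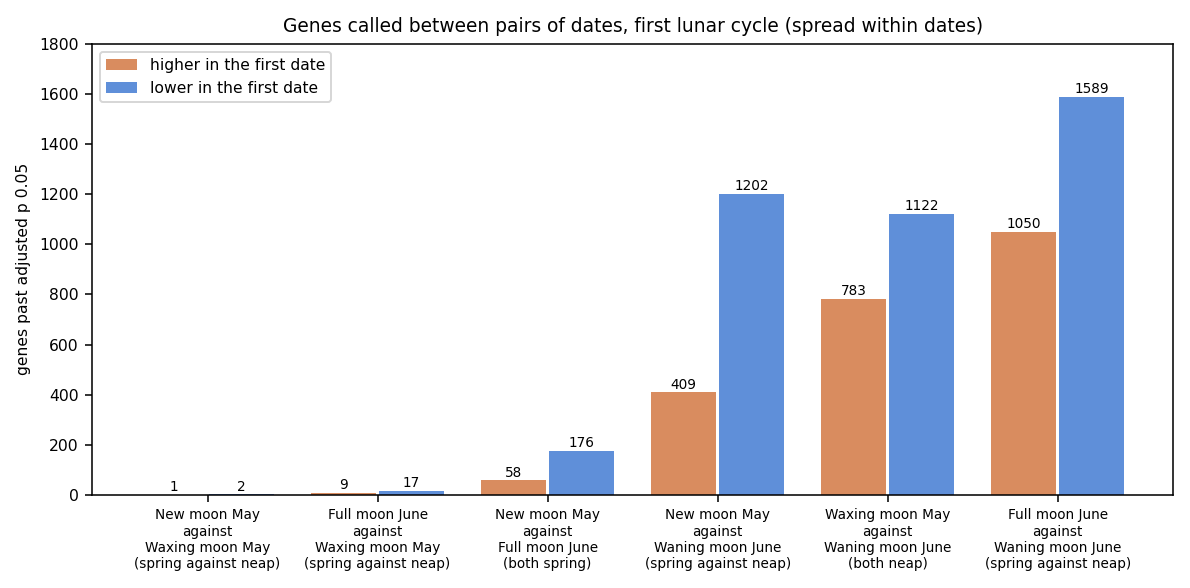
Number of genes past an adjusted p of 0.05 (limma, dates as fixed groups) for each of the 6 pairs of dates, higher and lower at the date named first. The 3 pairs that include Waning moon June have the tallest bars, up to 1050 genes higher and 1589 lower, and the 3 pairs among the other dates at most 58 and 176.

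Taking the pairs of dates that share no fish gives the tide difference in separate fish. The calls of all pairs come from the same fit with a pooled spread per gene, so a gene of small spread is favoured in each. The log2 differences of New moon May against Waxing moon May and of Full moon June against Waning moon June had a correlation of -0.12 across genes, and 42.6% of genes had the same sign in both. For New moon May against Waning moon June and Full moon June against Waxing moon May the correlation was 0.08, with 49.4% of genes of the same sign. Genes share a library within each pair and are not independent, so these values describe the libraries only. Of the 3 genes called between New moon May and Waxing moon May, 2 (66.7%) were also called in the same direction between Full moon June and Waning moon June. They were LOC101063749 and LOC101068683, and there 6.16% of all genes were called higher and 9.32% lower. Between New moon May and Waning moon June 2.4% of all genes were called higher and 7.05% lower. Of the 26 genes called between Full moon June and Waxing moon May, 6 (23.1%) were also called there in the same direction, as 0.372% of the 1611 called. One further gene was called in both with opposite signs. The 6 genes, listed after their values were seen, were LOC101063749, LOC101076680, klf3, LOC115248371, lpar6 and LOC101078749. Each of them is described below. Without fish 2 of Waxing moon May, 8 genes were called between Full moon June and that date, and 1 of them, LOC115248371, was shared in the same direction (12.5% of the 8 and 0.0612% of the 1633 called between New moon May and Waning moon June). The correlations across genes were then -0.18 and -0.009, with 40.4% and 46.8% of genes of the same sign.

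The gonadotropin genes had higher means at spring tide, but with a spread between fish that spanned the difference. The alpha subunit cga stood at 16122, 16403 and 8038 FPKM at New moon May and 12139.5, 14676 and 6421 FPKM at Full moon June. At Waxing moon May it was 7853, 80.7 and 5120.4 FPKM and at Waning moon June 2881, 3943 and 4406 FPKM. All 6 spring fish lay above every neap fish but fish 1 of Waxing moon May, which exceeded the lowest spring fish. The difference was 2.31 ± 1.04 on the log2 scale (± SE; limma, adjusted p = 0.984), and 1.30 without fish 2 of Waxing moon May.

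The luteinizing hormone subunit lhb was measured at 8370.2, 7695 and 3436 FPKM at New moon May and 8743, 9464 and 2895 FPKM at Full moon June. Its values were 6327, 53.4 and 4189.9 FPKM at Waxing moon May and 1772, 1806 and 3903 FPKM at Waning moon June. Fish 3 of both spring dates lay among the neap fish. The log2 difference was 1.92 ± 1.24 (limma, adjusted p = 0.984), and 0.88 without the low fish.

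For the follicle-stimulating hormone subunit fshb the spring values were 4629.5, 3864 and 2004 FPKM at New moon May and 1081, 1923 and 868 FPKM at Full moon June. The neap values were 2583, 14.3 and 1665 FPKM at Waxing moon May and 197, 422 and 344 FPKM at Waning moon June. Levels in the May fish, the low fish apart, were above most of those in the June fish at either tide. The log2 difference was 2.51 ± 1.44 (limma, adjusted p = 0.984), and 1.47 without the low fish.

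Upstream of the pituitary, gnrh1 showed no separation of the tides. It stood at 33.8, 3.46 and 29.5 FPKM at New moon May and 26.2, 32.6 and 5.32 FPKM at Full moon June. It was 28.2, 12.1 and 17.4 FPKM at Waxing moon May and 1.67, 1.04 and 5.11 FPKM at Waning moon June. Levels under 6 FPKM occurred in 1 fish of each spring date and in all 3 fish of Waning moon June, and none of the Waxing moon May fish was that low. The log2 difference of 1.15 ± 0.90 (limma, adjusted p = 0.984) became -0.14 when Waning moon June was left out and 0.24 with the library sum as a covariate. Transcripts of cebpd, a C/EBP family transcription factor, lay at 20.9 to 48.1 FPKM (median 35.4) in the spring fish and 12.6 to 36.7 FPKM (median 26.1) in the neap fish, with a log2 difference of 0.56 ± 0.35 (limma, adjusted p = 0.984).

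The other pituitary hormones were low in the same fish. Growth hormone (gh1) was 1483, 1491 and 574 FPKM at New moon May, 2066, 2256 and 1583 at Full moon June, 842, 18.1 and 834 at Waxing moon May and 333, 468 and 1126 at Waning moon June. Pro-opiomelanocortin (pomc), the precursor of corticotropin and melanotropin, was 14181, 300.3 and 10464 FPKM at Waxing moon May, and 7509 to 21404 FPKM (median 14352) in the spring fish and 300.3 to 14181 FPKM (median 8899) in the neap fish. Prolactin (prl) lay at 216 to 642 FPKM (median 397) in the spring fish and 5.56 to 587 FPKM (median 333) in the neap fish. Without fish 2 of Waxing moon May the log2 differences were 1.11 for gh1, 0.51 for pomc and 0.02 for prl. Prolactin was thus at nearly equal means in the 6 spring and the other 5 neap fish.

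The thyrotropin subunit tshb was the hormone gene whose groups did not overlap. Its spring values were 121, 287 and 135 FPKM at New moon May and 94.0, 115 and 80.2 FPKM at Full moon June. Its neap values were 73.1, 1.08 and 57.0 FPKM at Waxing moon May and 19.9, 44.6 and 67.2 FPKM at Waning moon June. The highest neap fish was just under the lowest spring fish, and the log2 difference of 2.14 ± 0.87 (1.35 without the low fish) did not pass (limma, adjusted p = 0.984).

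With the level of the other pituitary hormones as a covariate, the log2 differences of the gonadotropin genes were smaller: 0.56 for cga, 0.07 for lhb and 0.67 for fshb. The same covariate gave 0.99 for gnrh1. The covariate is built from gh1, prl, pomc, tshb and the somatolactin gene, and under it pomc (-0.08) and prl (-0.72) had the opposite sign. The differences of these member genes cancel out on average under it by construction, so not all could keep a positive sign.

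**Figure D3:**
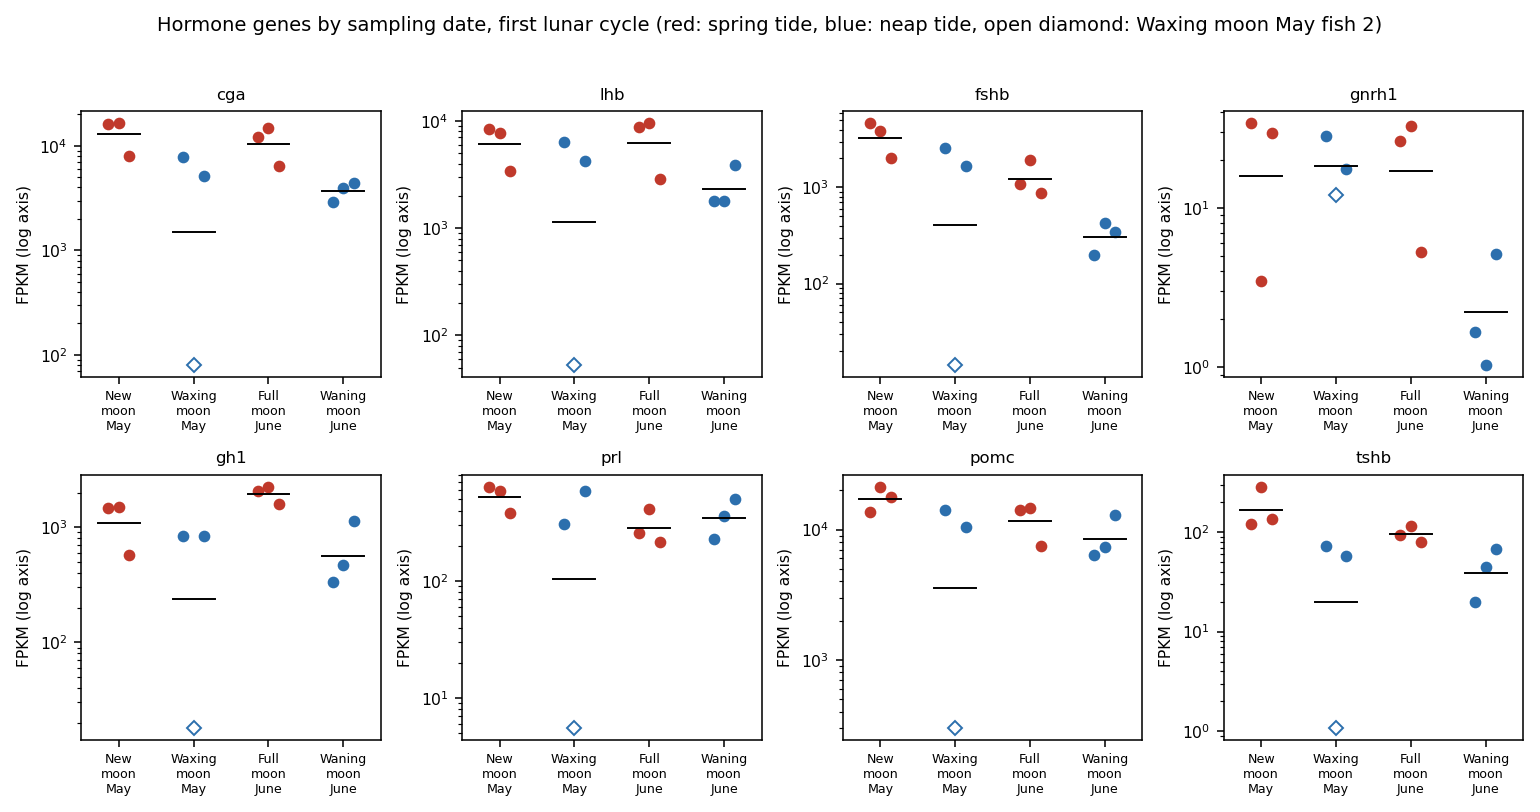
FPKM of 8 hormone genes in each of the 12 fish on a log axis, by sampling date; the bar is the mean of log2(FPKM + 1) of the 3 fish, put back on the FPKM scale. Fish 2 of Waxing moon May (open diamond) is the lowest of the 12 in cga, lhb, fshb, gh1, prl, pomc and tshb, and for gnrh1 the fish of Waning moon June are at 1.04 to 5.11 FPKM.

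Among 29 genes matched to the gonadotropin axis, 19 were tested and none passed; 14 had a higher and 5 a lower mean at spring tide, with a median log2 difference of 0.33 (0.15 without fish 2 of Waxing moon May), beside -0.03 over all genes. The smallest p in it belonged to an estrogen receptor beta-like gene (LOC101075495), a receptor for estrogens in brain and pituitary. It stood at 17.1, 17.1 and 10.4 FPKM at New moon May and 6.59, 9.81 and 8.78 FPKM at Full moon June. Its levels were 7.91, 3.2 and 7.26 FPKM at Waxing moon May and 5.25, 5.85 and 6.97 FPKM at Waning moon June, so New moon May was the high date. For this receptor the log2 difference was 0.81 ± 0.31 (limma, adjusted p = 0.984), and 0.65 without fish 2 of Waxing moon May. A gonadotropin-releasing hormone II receptor-like gene (LOC101077044) ranged over 6.53 to 31.7 FPKM (median 14.3) in the spring fish and 0.23 to 36.7 FPKM (median 3.54) in the neap fish, the highest value of all being in fish 1 of Waxing moon May.

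In the list of pituitary hormones and cell factors 25 of 31 genes were tested and none passed; 20 had a higher mean at spring tide, and the median log2 difference was 0.31 (0.16 without the low fish). Prohormone convertase pcsk2, which cuts hormone precursors, lay at 115 to 199 FPKM (median 140.5) in the spring fish and 83.6 to 157 FPKM (median 112) in the neap fish. Carboxypeptidase E (cpe), which trims the cut peptides in secretory granules, is not in this list. It had the smallest p of all genes higher at spring tide. It was 602, 531 and 479 FPKM at New moon May and 497, 476 and 434 FPKM at Full moon June. It was 388, 296 and 374 FPKM at Waxing moon May and 345, 335 and 337 FPKM at Waning moon June. No neap fish reached the lowest spring fish. In cpe the log2 difference was 0.54 ± 0.14 (limma, adjusted p = 0.984), 0.48 without fish 2 of Waxing moon May and 0.43 with the pituitary level as a covariate.

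The other genes with the smallest p among those higher at spring tide were tspan8, itga1, LOC101075364, klf3 and LOC101066901, and none passed. The membrane protein gene tspan8 lay at 1.45 to 2.77 FPKM (median 2.16) in the spring fish and 0 to 1.01 FPKM (median 0.72) in the neap fish, and it was listed at 0 in fish 2 of Waxing moon May. Its neap mean of 0.6 FPKM was under the 1 FPKM of the filter, and its spring mean of 2.21 FPKM helped it to pass. Integrin alpha 1 (itga1), a collagen receptor subunit, was measured at 5.23 to 6.94 FPKM (median 6.08) in the spring fish and 3.59 to 5.09 FPKM (median 4.32) in the neap fish. The transcriptional repressor klf3 had 14.4 to 18.4 FPKM (median 15.6) in the spring fish and 10.4 to 13.02 FPKM (median 11.5) in the neap fish. In these 3 genes the groups did not overlap, and their log2 differences were 1.03 ± 0.27, 0.42 ± 0.11 and 0.42 ± 0.11 (limma, adjusted p = 0.984 for each). Without fish 2 of Waxing moon May they were 0.89, 0.43 and 0.40. A reprimo-like gene (LOC101075364) lay at 4.88 to 8.52 FPKM (median 6.71) in the spring fish and 1.77 to 5 FPKM (median 2.86) in the neap fish, overlapping in 1 fish of each side, with a log2 difference of 0.91 ± 0.24.

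The smallest p of all genes, 2.74e-05, belonged to a gene annotated as TSC22 domain family protein 2-like (LOC115248371), which was lower at spring tide. It was 6.82, 5.6 and 5.48 FPKM at New moon May and 4.37, 5.42 and 4.83 FPKM at Full moon June. It was 9.67, 9.85 and 12.3 FPKM at Waxing moon May and 8.87, 11.2 and 8.79 FPKM at Waning moon June. The dates of each tide were close to each other and no value of one tide lay within the other. Its log2 difference was -0.79 ± 0.15 (limma, adjusted p = 0.467), and -0.81 without fish 2 of Waxing moon May. Its product name follows gene models of Takifugu rubripes.

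The lysophosphatidic acid receptor gene lpar6 behaved alike. It was 6.81, 5.09 and 5.45 FPKM at New moon May and 5.93, 5.59 and 5.02 FPKM at Full moon June. It was 8.7, 9.65 and 10.2 FPKM at Waxing moon May and 8.45, 9.29 and 8.1 FPKM at Waning moon June. The spring fish were all lower than the neap fish, with a log2 difference of -0.60 ± 0.13 (limma, adjusted p = 0.651).

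Also lower at spring tide without passing were nlrx1, a mitochondrial member of the NLR family, mecom, a zinc finger transcription factor, a mitochondrial thymidine kinase 2-like gene (LOC115248709) and cldn5, a tight junction protein of vessel endothelium. Transcripts of nlrx1 lay at 2.66 to 3.76 FPKM (median 3.27) in the spring fish and 4.07 to 6.6 FPKM (median 5.12) in the neap fish. Those of mecom lay at 0.36 to 0.81 FPKM (median 0.665) in the spring fish and 1.04 to 1.74 FPKM (median 1.46) in the neap fish. Every spring fish of either cycle was under 1 FPKM in mecom, so the gene passed the filter on low values through its neap fish. For LOC115248709 the values were 2.05 to 3.19 FPKM (median 2.58) in the spring fish and 3.63 to 5.67 FPKM (median 4.85) in the neap fish. No spring fish reached the lowest neap fish in these 3 genes, and the log2 differences were -0.55 ± 0.13, -0.59 ± 0.14 and -0.65 ± 0.15 (limma, adjusted p = 0.964 for each).

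The genes with the widest empty space between the groups included, higher at spring tide, a class E basic helix-loop-helix protein 40-like gene (LOC101063749), an oligosaccharyltransferase-linked gene annotated as tumor suppressor candidate 3 (LOC101063622) and mcfd2, which helps load cargo for export from the endoplasmic reticulum. LOC101063622 lay at 61.5 to 78.2 FPKM (median 65.0) in the spring fish and 43.4 to 51.6 FPKM (median 47.7) in the neap fish. Values of mcfd2 lay at 29.4 to 40.7 FPKM (median 35.2) in the spring fish and 12.3 to 25.5 FPKM (median 21.7) in the neap fish, the lowest again in fish 2 of Waxing moon May. Lower at spring tide were a LIM domain kinase 1 gene (LOC101061585), a platelet-derived growth factor receptor-like gene (LOC101075610) and nkd2, an inhibitor of Wnt signalling. For nkd2 the levels were 11.8 to 16.3 FPKM (median 14.6) in the spring fish and 18.8 to 24.7 FPKM (median 21.4) in the neap fish. LIM domain kinase 1 showed 2.27 to 3.35 FPKM (median 3.11) in the spring fish and 4.25 to 4.77 FPKM (median 4.48) in the neap fish. The log2 differences were 0.48 ± 0.13 for LOC101063622, 0.77 ± 0.26 for mcfd2, -0.58 ± 0.17 for nkd2, -0.45 ± 0.13 for LOC101061585 and -0.52 ± 0.17 for LOC101075610, and none passed in limma. Without fish 2 of Waxing moon May they were, in the same order, 0.45, 0.63, -0.55, -0.44 and -0.50.

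Of the circadian clock genes, many differed between these dates, in both directions. Of 40 genes matched, 38 were tested; none passed with the date as a random block, 6 were higher and 6 lower at an unadjusted p under 0.05 (1.33% and 2.73% of all genes), and 6 were higher and 8 lower with dates fixed, where 0.545% and 1.09% of all genes were called. Without fish 2 of Waxing moon May 3 and 5 were called (0.135% and 0.246% of all genes). The median log2 difference over the list was -0.06, since members of both signs were present. The list was chosen with earlier results of these data known, so this count is a description. The members called with dates fixed and not described below, named after their values were seen, were a cryptochrome-1-like gene (LOC101072059), a CLOCK-like gene (LOC101072867) and a PER2-like gene (LOC115246449), higher at spring tide by 0.29, 0.22 and 0.48 on the log2 scale. On the lower side were an HLF-like gene (LOC101068247), a second ARNTL2 gene (LOC101072137), a second TEF-like gene (LOC101073097), NR1D2 (LOC101077948) and PER3 (LOC101078561), with log2 differences of -0.31, -0.40, -0.72, -0.43 and -0.32.

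Clock repressors of the REV-ERB kind had lower means at spring tide. A nuclear receptor subfamily 1 group D member 1-like gene (LOC101078749) was 4.87, 6.43 and 6.39 FPKM at New moon May and 3.44, 4.69 and 4.53 FPKM at Full moon June. It was 9.32, 13.3 and 8.57 FPKM at Waxing moon May and 14.4, 14.6 and 13.7 FPKM at Waning moon June. All spring fish were below all neap fish, and Waning moon June was the highest date. In limma its log2 difference of -1.13 ± 0.29 had an adjusted p of 0.984 and, with dates fixed, of 0.000667. A second gene with the same product name (LOC101076758) overlapped between the tides, at 28.9 to 57.4 FPKM (median 38.8) in the spring fish and 37.96 to 67.8 FPKM (median 48.0) in the neap fish.

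ROR-beta-like genes, whose proteins bind the same DNA elements as the REV-ERB proteins and act as activators, were at the opposite end. LOC101076680 was 19.6, 17.9 and 16.2 FPKM at New moon May and 22.1, 22.9 and 24.5 FPKM at Full moon June. It was 12.1, 12.2 and 13.7 FPKM at Waxing moon May and 15.4, 12.2 and 11.5 FPKM at Waning moon June. The neap dates were close to each other and the spring dates above them, with Full moon June highest. Its paralogue LOC101077131 lay at 5.13 to 7.49 FPKM (median 6.45) in the spring fish and 2.67 to 4.31 FPKM (median 4.07) in the neap fish, also without overlap. The log2 differences were 0.63 ± 0.19 and 0.63 ± 0.22 (limma, adjusted p = 0.984 for both). Reads shared between such close paralogues make their separate levels uncertain.

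The light- and clock-driven repressors bhlhe40 and bhlhe41 had opposite signs. LOC101063749, the bhlhe40-like gene, is not in the clock list counted above. This gene was 51.2, 39.9 and 38.4 FPKM at New moon May and 37.7, 37.8 and 38.3 FPKM at Full moon June. It was 26.1, 18.3 and 20.2 FPKM at Waxing moon May and 23.5, 22.3 and 28.8 FPKM at Waning moon June, so it was higher in every spring fish. Its log2 difference was 0.79 ± 0.24 (limma, adjusted p = 0.984).

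Transcripts of bhlhe41, added after its values had been seen, stood at 9.03, 10.4 and 10.7 FPKM at New moon May and 4.58, 3.88 and 4.03 FPKM at Full moon June. They stood at 11.4, 14.3 and 10.8 FPKM at Waxing moon May and 13.1, 13.3 and 12.2 FPKM at Waning moon June. Full moon June was low and the other 3 dates were near each other, the highest New moon May fish lying just under the lowest neap fish. The log2 difference was -0.84 ± 0.29 (limma, adjusted p = 0.984) and -0.29 without Full moon June.

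Of the clock output factors, a thyrotroph embryonic factor-like gene (LOC115246496) was 5.35, 6.72 and 6.39 FPKM at New moon May and 4.92, 4.58 and 3.67 FPKM at Full moon June. It was 7.46, 8.57 and 9.61 FPKM at Waxing moon May and 9.04, 9.27 and 9.93 FPKM at Waning moon June. No spring fish reached a neap fish, and the log2 difference was -0.69 ± 0.20 (limma, adjusted p = 0.984). A gene named aryl hydrocarbon receptor nuclear translocator-like protein 2 (LOC101065207), a partner of the CLOCK protein, was at 9.13 to 14.7 FPKM (median 12.1) in the spring fish and 7.96 to 10.1 FPKM (median 8.84) in the neap fish, with Full moon June above all other dates. The negative regulator per1 lay at 5.6, 6.12 and 5.7 FPKM at Full moon June and at 12.7 to 26.3 FPKM at the other 3 dates, and its log2 difference of -0.56 ± 0.35 became 0.33 without Full moon June. All fish were sampled at around 19:00, and the labels do not give sunset or the time since capture.

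**Figure D4:**
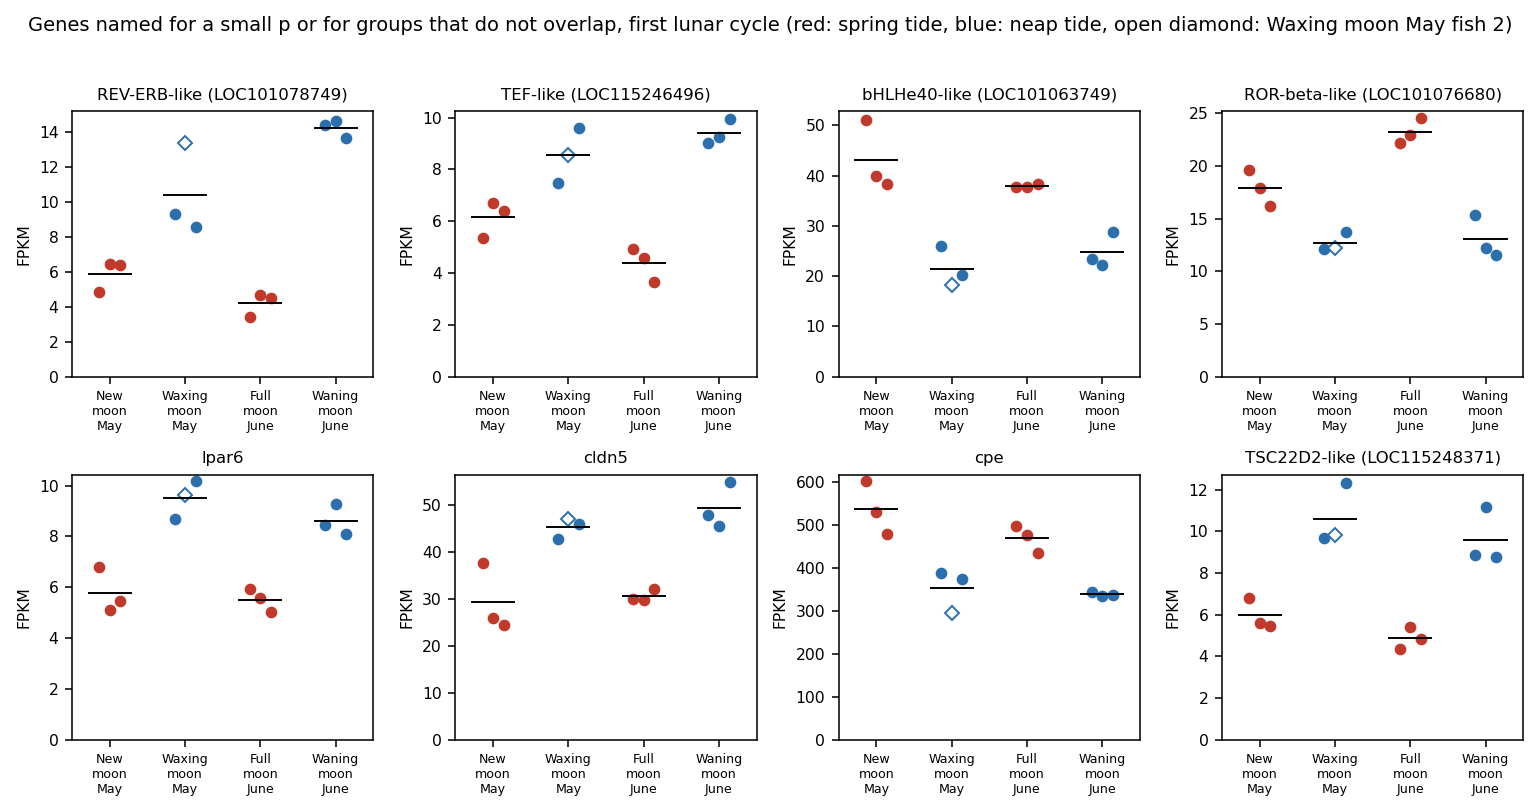
FPKM of 8 genes in each of the 12 fish by sampling date, on linear axes that start at 0; the bar is the mean of the 3 fish of a date. In each panel the 6 spring fish (red) lie wholly above or wholly below the 6 neap fish (blue). Of the 2 spring dates Full moon June has the mean farther from the neap fish for LOC101078749, LOC115246496, LOC101076680 and LOC115248371, and slightly for lpar6.

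In the list for folding and the unfolded protein response of the endoplasmic reticulum, 40 of 41 genes were tested and none passed. In 35 of the 40 the mean was higher at spring tide, and the median log2 difference was 0.17, beside -0.03 over all genes; it was 0.04 with the library sum as a covariate. A translocon-associated protein subunit alpha-like gene (LOC101066901), of the complex through which secreted proteins enter the organelle, was 20.4, 23.3 and 14.2 FPKM at New moon May and 21.2, 31.3 and 16.2 FPKM at Full moon June. It was 14.7, 4.64 and 11.02 FPKM at Waxing moon May and 5.54, 8.17 and 7.46 FPKM at Waning moon June. The overlap between the tides was limited to fish 1 of Waxing moon May and fish 3 of New moon May. Its log2 difference was 1.25 ± 0.34 (limma, adjusted p = 0.984), and 1.08 without fish 2 of Waxing moon May. It was 0.86 with either the pituitary level or the library sum as a covariate. The translocon subunit sec61b ranged over 54.5 to 84.3 FPKM (median 69.2) in the spring fish and 46.2 to 56.9 FPKM (median 49.9) in the neap fish. The chaperone partner dnajc3 ranged over 12.7 to 32.1 FPKM (median 18.7) in the spring fish and 7.77 to 21.8 FPKM (median 10.97) in the neap fish, and both overlapped. The Full moon June fish were the high ones and the Waning moon June fish the low ones: the median deviation of the list from its mean over the 12 fish was 0.25 and -0.19 at these dates.

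Immediate early genes, which respond within minutes to neural activity, were higher at spring tide in 24 of 33 tested of 35 matched, with a median log2 difference of 0.11 (-0.02 without New moon May) and none past the threshold. The AP-1 subunit fosl2 was 32.1, 37.9 and 36.4 FPKM at New moon May and 34.9, 35.5 and 36.7 FPKM at Full moon June. It was 31.9, 28.4 and 28.7 FPKM at Waxing moon May and 27.7, 27.2 and 25.3 FPKM at Waning moon June. The lowest spring fish was just above the highest neap fish, and the log2 difference was 0.33 ± 0.10 (limma, adjusted p = 0.984). The phosphatase gene dusp5 lay at 12.6 to 20.8 FPKM (median 15.4) in the spring fish and 9.33 to 15.6 FPKM (median 11.5) in the neap fish. The c-Fos gene (LOC101068404) lay at 7.9 to 12.9 FPKM (median 10.7) in the spring fish and 5.98 to 11.8 FPKM (median 8.66) in the neap fish, and both genes overlapped between the tides.

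In the prostaglandin pathway 18 of 26 genes were tested, none passed, and 10 had a higher mean at spring tide (median log2 difference 0.01). A prostaglandin E2 receptor EP4 subtype-like gene (LOC101070091) was 3.61, 2.44 and 2.7 FPKM at New moon May and 1.67, 1.47 and 1.29 FPKM at Full moon June. It was 1.57, 1.1 and 1.33 FPKM at Waxing moon May and 1.48, 0.8 and 0.91 FPKM at Waning moon June. New moon May was the high date, and all but 1 fish of Full moon June lay among the neap fish. The log2 difference of 0.51 ± 0.21 (limma, adjusted p = 0.984) was 0.18 without New moon May. The EP2 subtype-like receptor (LOC101075152) lay at 1.28 to 2.36 FPKM (median 1.62) in the spring fish and 0.15 to 1.72 FPKM (median 1) in the neap fish. A prostacyclin synthase-like gene (LOC101079540), whose enzyme forms prostacyclin, lay at 5.27 to 15.8 FPKM (median 10.9) in the spring fish and 0.36 to 14.3 FPKM (median 3.18) in the neap fish, with overlap.

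Of 21 genes of the glucocorticoid and stress axis 19 were tested, none passed, and 11 had a higher mean at spring tide (median log2 difference 0.04). The corticotropin-releasing hormone binding protein crhbp, which holds that hormone inactive, was 31.0, 26.0 and 30.4 FPKM at New moon May and 49.6, 38.4 and 21.6 FPKM at Full moon June. It was 25.4, 29.9 and 20.8 FPKM at Waxing moon May and 13.7, 9.08 and 12.2 FPKM at Waning moon June. Waning moon June was low, while Waxing moon May lay beside the spring fish. The log2 difference of 0.85 ± 0.30 (limma, adjusted p = 0.984) was 0.32 without Waning moon June and 1.39 without Waxing moon May. The glucocorticoid target klf15 (LOC101071465, Krueppel-like factor 15) lay at 1.95 to 2.4 FPKM (median 2.23) in the spring fish and 2.72 to 3.72 FPKM (median 3.28) in the neap fish, without overlap, and its log2 difference was -0.40 ± 0.15 (limma, adjusted p = 0.984).

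The thyroid axis had 20 of 25 genes tested, none passed, and 8 had a higher mean at spring tide (median log2 difference -0.06). A solute carrier organic anion transporter family member 1C1-like gene (LOC101072817), a carrier of thyroid hormone at the blood-brain barrier in mammals, was 2.43, 1.51 and 1.89 FPKM at New moon May and 1.39, 2.05 and 1.8 FPKM at Full moon June. It was 3.38, 3.39 and 1.52 FPKM at Waxing moon May and 5.98, 7.35 and 6.09 FPKM at Waning moon June. The 3 Waning moon June fish were the highest of all and fish 3 of Waxing moon May was among the spring fish. The log2 difference was -0.88 ± 0.25 (limma, adjusted p = 0.984), -0.37 without Waning moon June and -1.40 without Waxing moon May. In that last fit its adjusted p in limma was 0.0118, but Waning moon June alone then stands for neap tide. That p cannot tell the tide from that date. Thyrotropin-releasing hormone (trh) lay at 10.2 to 12.2 FPKM (median 11.3) in the spring fish and 10.1 to 18.8 FPKM (median 15.5) in the neap fish, with Waning moon June above every other fish.

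Among hypothalamic neuropeptides 27 of 39 were tested, none passed, and 14 had a higher mean at spring tide (median log2 difference 0.03). Pro-neuropeptide Y (LOC101076657), which stimulates feeding and acts on the gonadotropin axis in fish, was 95.1, 152 and 125 FPKM at New moon May and 88.1, 65.6 and 85.9 FPKM at Full moon June. It was 51.8, 68.7 and 29.5 FPKM at Waxing moon May and 28.6, 63.0 and 35.3 FPKM at Waning moon June. Only fish 2 of Waxing moon May exceeded the lowest spring fish, and the log2 difference was 1.16 ± 0.45 (limma, adjusted p = 0.984). Vasoactive intestinal peptide (vip) was lower at spring tide without overlap, at 1.85 to 2.36 FPKM (median 2.12) in the spring fish and 2.48 to 4.63 FPKM (median 3.4) in the neap fish, with a log2 difference of -0.53 ± 0.19 (limma, adjusted p = 0.984). The nesfatin precursor nucb2 lay at 6.7 to 21.9 FPKM (median 16.2) in the spring fish and 1.95 to 15.6 FPKM (median 5.62) in the neap fish. Agouti related protein 2 (agrp2) lay at 5.34 to 11.5 FPKM (median 8.72) in the spring fish and 3.45 to 7.85 FPKM (median 4.78) in the neap fish.

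Markers of vessels were at lower summed levels at spring tide. The summed level of 16 genes of endothelium and vessel wall was 194 to 212 FPKM in the spring fish and 218 to 272 FPKM in the neap fish, without overlap, and Waning moon June was highest with 255 to 272 FPKM. Of 15 tested, 11 had a lower mean at spring tide, 5 of them at an unadjusted p under 0.05 (2.73% of all genes), and none passed. The median log2 difference was -0.24, and -0.05 without Waning moon June. A sum weights abundant genes most, and the excess of Waxing moon May over the spring dates lay largely in cldn5 and acta2. Per gene, the median deviation from the mean over the 12 fish was -0.07 at New moon May and -0.08 at Full moon June. It was -0.02 at Waxing moon May and 0.24 at Waning moon June. The tight junction gene cldn5 was 37.7, 25.9 and 24.5 FPKM at New moon May and 30.04, 29.8 and 32.0 FPKM at Full moon June. It was 42.6, 47.0 and 45.9 FPKM at Waxing moon May and 47.7, 45.6 and 54.9 FPKM at Waning moon June. The 2 spring dates were alike and below both neap dates, with a log2 difference of -0.65 ± 0.16 (limma, adjusted p = 0.984). The endothelial receptor tie1 lay at 2.79 to 3.94 FPKM (median 3.44) in the spring fish and 2.9 to 5.84 FPKM (median 4.84) in the neap fish. The smooth muscle actin acta2 lay at 17.8 to 33.8 FPKM (median 23.9) in the spring fish and 26.9 to 51.5 FPKM (median 30.7) in the neap fish, and both overlapped between the tides. In the second cycle the log2 differences were -1.04 for cldn5, -0.45 for tie1 and 0.32 for acta2.

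Transcripts of egg coat and yolk genes were found in the tissue of these males. The summed level of 16 such genes, of which 1 was at 0 in all 12 fish, was 19.0 to 576 FPKM in the spring fish and 3.98 to 74.4 FPKM in the neap fish. Of the 16, 4 passed the filter on low values, which a high spring level helps a gene to pass. A vitellogenin-like gene (LOC101062271), a yolk precursor normally made in the liver of females, was 29.0, 16.7 and 3.89 FPKM at New moon May and 24.4, 28.3 and 19.9 FPKM at Full moon June. It was 7.03, 0.06 and 4.1 FPKM at Waxing moon May and 0.82, 1.39 and 3.46 FPKM at Waning moon June. Fish 3 of New moon May was as low as the neap fish, and the other 5 spring fish were above all of them. Vitellogenin had a log2 difference of 2.59 ± 0.72 (limma, adjusted p = 0.984), 2.22 without fish 2 of Waxing moon May and 1.82 with the pituitary level as a covariate. A zona pellucida sperm-binding protein 4-like gene (LOC101079966) lay at 0.23 to 13.1 FPKM (median 3.3) in the spring fish and 0.03 to 0.3 FPKM (median 0.115) in the neap fish. Of 2 zona pellucida sperm-binding protein 3-like genes, LOC105416883 lay at 6.64 to 289 FPKM (median 53.7) in the spring fish and 0.33 to 36.6 FPKM (median 10.3) in the neap fish. The other, LOC101080196, lay at 5.56 to 246.4 FPKM (median 58.4) in the spring fish and 0.66 to 31.3 FPKM (median 16.3) in the neap fish, and in both the highest value was in fish 1 of Full moon June; reads shared between these copies make their separate levels uncertain.

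Among genes of photoreceptors and the pineal organ, rhodopsin and the described genes of melatonin synthesis were high in single fish rather than at a tide. Rhodopsin (rho) was 69.4, 0.12 and 0.03 FPKM at New moon May and 0, 0.09 and 0.03 FPKM at Full moon June. It was 0.15, 0.06 and 81.4 FPKM at Waxing moon May and 0.09, 29.0 and 108 FPKM at Waning moon June. It was thus above 20 FPKM in 4 of the 12 fish, of 3 dates and both tides, and near 0 in the others. Transcripts of asmt, the last enzyme of melatonin synthesis, and of a serotonin N-acetyltransferase-like gene (LOC101065059) were highest in the same 4 fish, at 3.1 to 11.1 FPKM and 4.66 to 12.7 FPKM. A pinopsin-like gene (LOC101073072) lay at 0.39 to 3.85 FPKM (median 1.58) in the spring fish and 0.1 to 2.32 FPKM (median 1.01) in the neap fish.

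The remaining lists gave no call with the date as a random block. Cytosolic ribosomal protein genes had a higher mean at spring tide in 82 of 82 tested, with a median log2 difference of 0.12 that was -0.13 with the library sum as a covariate and -0.14 without Waning moon June. Oxidative phosphorylation genes were higher in 63 of 89, with a median of 0.04 that was -0.12 without Waning moon June, -0.05 with the library sum as a covariate and -0.04 with libraries scaled to one sum, which moved the median of all genes to -0.11. Cholesterol synthesis genes were higher in 17 of 21, with a median of 0.13 that was -0.06 without New moon May and -0.0028 without Waning moon June. Heat shock genes were higher in 6 of 19, with a median of -0.10 that was 0.08 without New moon May and -0.36 without Full moon June. Interferon response genes were higher in 10 of 26, with a median of -0.04 that was 0.10 without Waxing moon May, and cell cycle genes in 4 of 6. The medians near 0 of the clock, prostaglandin, glucocorticoid, neuropeptide and thyroid lists also changed sign when 1 date was left out. Of the marker lists of other cell types, 2 of 10 tested hypothalamic genes had a higher mean at spring tide, 5 of 7 telencephalic, 3 of 10 neuronal, 3 of 7 of myelin, 5 of 9 of astrocytes or radial glia, 1 of 7 of microglia and macrophages, 5 of 5 of red blood cells (median 0.32, and -0.32 without Waning moon June), 1 of 9 of meninges, 4 of 4 of liver and 1 of 1 of skeletal muscle. Medians of the liver, skeletal muscle, neuron, myelin, astrocyte or radial glia, microglia and cell cycle lists also changed sign when 1 date was left out. Over all genes 41.7% had a higher mean at spring tide.

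**Figure D5:**
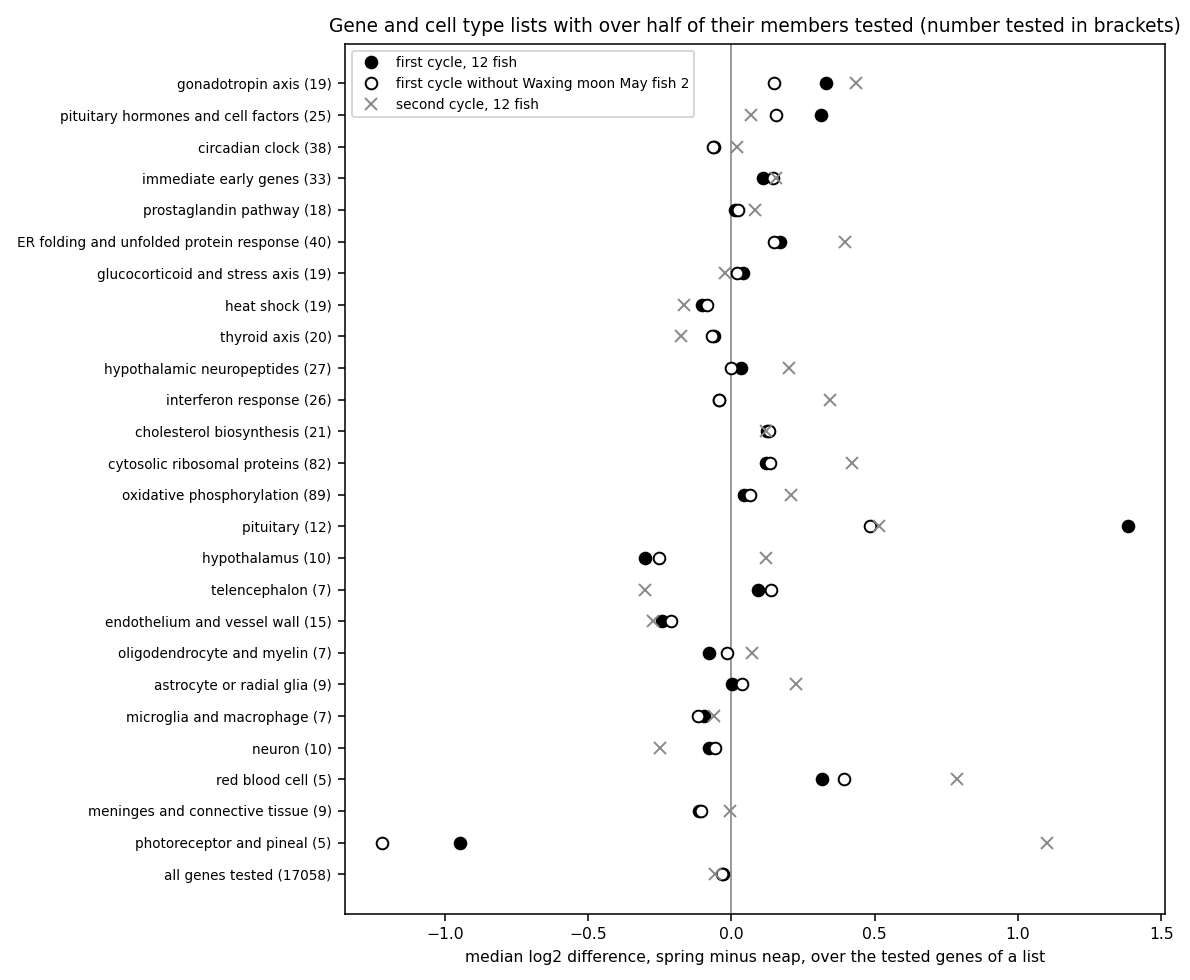
Median log2 difference, spring minus neap, over the tested genes of each list with more than 50% of its members tested, for the 12 fish of the first cycle, without fish 2 of Waxing moon May, and for the 12 fish of the second cycle. The pituitary list lies at 1.38 with and 0.48 without that fish, and the vessel list at -0.24, -0.21 and -0.27.

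The difference between the tides was next compared with that of the second lunar cycle, whose 12 fish are separate. No gene's tide difference differed between the cycles at an adjusted p under 0.05 in limma; the smallest adjusted p was 0.993, and 335 genes (1.96%) and 272 (1.59%) had a positive or a negative difference at an unadjusted p under 0.05. Across genes the log2 differences of the 2 cycles had a correlation of 0.459, and 0.426 without that fish, as a description of these libraries. The sign was the same in both cycles for 70.8% of all genes tested. For the 93 genes higher and the 186 lower with dates fixed it was the same in 85 (91.4%) and 177 (95.2%). For the 23 and 42 genes called without fish 2 of Waxing moon May it was the same in 18 (78.3%) and 38 (90.5%). The fits with dates fixed take their spread from the fish of both cycles, so genes of small spread in the second cycle are favoured in these calls. The share of 70.8% joins genes of both directions and any size of difference. These shares are therefore a description only.

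In 19 genes the fish of the 2 tides did not overlap in either cycle, 4 higher and 15 lower at spring tide, and no gene was separated in opposite directions. They are named here after their values were seen. Of the 29 genes wholly higher at spring tide in the first cycle these are 13.8%, and of the 63 wholly lower ones 23.8%, while 2.24% and 6.04% of all genes tested were separated in the second cycle. The 4 higher genes were fosl2, itga1, mcfd2 and a SIK2-like kinase gene (LOC101070411). Of the lower ones, cldn5, lpar6, mecom, nlrx1 and LOC101061585 have been described, and a forkhead box C1-A gene (LOC101072421), a transcription factor of vessel pericytes and meninges, lay at 7.55 to 13.2 FPKM in spring fish and 15.3 to 19.9 FPKM in neap fish of the first cycle. In the second cycle LOC101072421 lay at 5.88 to 12.7 FPKM and 14.9 to 19.6 FPKM. The others were rbm33, cpt2, ncstn, prrc2c, pcdh10, ube4a, LOC101073695, LOC101074350 and LOC101078946, with log2 differences of -0.61 to -0.11 in the first cycle. Of the 19 genes, mecom had every spring fish of both cycles under 1 FPKM, so it passed the filter on low values through its neap fish.

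Several of the clock genes named above had a smaller or opposite tide difference in the second cycle, with no difference between the cycles past the test. LOC101078749 had a log2 difference of 0.03 in the second cycle, and the difference between the cycles was -1.16 ± 0.41 (limma, adjusted p = 0.993). LOC101076680 had -0.31 in the second cycle, a difference between the cycles of 0.94 ± 0.26 (limma, adjusted p = 0.993). For LOC101063749, outside the clock list, the log2 difference was -0.05 in the second cycle, and for LOC115246496 -0.50. The PER2-like gene LOC115246449 had a larger one in the second cycle, 1.05 against 0.48. PER3 (LOC101078561) had a similar one, -0.355 against -0.315. So did the second TEF-like gene LOC101073097, -0.63 against -0.72, and the cryptochrome-1-like gene LOC101072059, 0.24 against 0.29. Most of these genes were named for their first-cycle values, and that choice alone favours smaller differences in the second cycle. In the second cycle the spring and neap ranges of LOC101078749, 5.74 to 16.1 and 3.77 to 13.6 FPKM, overlapped widely.

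The smallest p of the difference between cycles belonged to a glypican-5-like gene (LOC101067285), at 6.75 to 8.93 FPKM (median 7.73) in the spring fish and 6.79 to 9.66 FPKM (median 8.86) in the neap fish, with a log2 difference of -0.10 ± 0.13 in the first cycle and 0.63 in the second (limma, adjusted p = 0.993). The other genes of negative sign were an aminopeptidase N-like gene (LOC101079150), ecrg4, the second REV-ERB-like gene LOC101076758 and emp2. Their log2 differences were 0.09 ± 0.21, -0.26 ± 0.19, -0.24 ± 0.20 and 0.18 ± 0.26 in the first cycle against 1.26, 0.75, 0.85 and 1.52 in the second. Of positive sign were a SOX-4 gene (LOC101072929), dnajc6, a MYCN gene (LOC101071379), LOC101076680 and lmo4. For LOC101072929 the difference was 0.28 ± 0.13 in the first cycle and -0.43 in the second, and for dnajc6, a co-chaperone of clathrin uncoating, -0.13 ± 0.09 and -0.65. In most of these genes the tides were close in the first cycle and apart in the second. The gonadotropin subunit lhb had a log2 difference of 4.48 in the second cycle, with a difference between the cycles of -2.56 ± 1.75 (limma, adjusted p = 0.993). Pro-neuropeptide Y (LOC101076657) had the opposite sign in the second cycle, at 18.7 to 85.2 FPKM in the spring fish and 43.6 to 167 FPKM in the neap fish. Its log2 difference was -0.72 there, and the difference between the cycles was 1.88 ± 0.63 (limma, adjusted p = 0.993).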

How the data were processed

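RNA was sequenced from 24 brain-pituitary pieces of wild males as poly-A selected, strand-specific, paired reads of 100 bases, per the labels' protocols. The deposited table holds FPKM values with 2 decimals per library. HISAT2 2.0.4 and RSEM 1.2.12 are named in the submitters' processing notes. Which genome build they used was not given in the sources used here. Gene names are those of the deposited table, which follows Takifugu rubripes descriptions. Read depth per library is unknown, so no counting error can be given. No sequence or coordinate was used.

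From the deposited FPKM, log2(FPKM + 1) was computed for the 17058 of 24935 genes with a mean of at least 1 FPKM over the 24 libraries. Spring was compared with neap tide in the first lunar cycle with limma 3.58.1 (statmod 1.5.0, R 4.3.3): 1 mean per tide and cycle, the sampling date as a random block (estimated correlation within dates 0.290), an intensity trend and Benjamini-Hochberg adjustment over all genes tested at 0.05. Libraries were grouped by the sampling point in the labels; dates of new and full moon were taken as spring tide. A fit with the 8 dates as fixed groups gave the comparisons between dates. The method was tested on simulated data. No 2 libraries held identical values.

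The comparison, the gene lists and the marker lists were chosen with earlier results of these data known. Genes were named by a rule: the 6 smallest p-values per direction, the 6 widest gaps between non-overlapping groups per direction, 9 preset hormone and regulator genes, up to 4 genes per described list by smallest p, and the 5 smallest p-values per sign of the difference between cycles; others are marked as chosen after their values were seen. In total 31 other settings were tried.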

Additional observations from a re-analysis of the deposited data

Results flagged for a closer look

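Among the 6 fish of a tide, the gap between the most extreme fish and its neighbour was taken as a share of the whole range on the log2 scale, for 76 named genes, the pituitary hormone level and the library sum. Of 156 groups of 6 fish, 14 had a share above Dixon's 95% critical value for 6 values, and chance flags about 1 in 20 groups. The groups share the same fish and hold genes that vary together, so this rate gives no expected number here. Fish 2 of Waxing moon May stood apart at the low end of the neap fish in 7 of the 14: cga (0.780), lhb (0.732), gh1 (0.702), prl (0.791), pomc (0.791), tshb (0.646) and the mean level of the pituitary hormones (0.735). That fish was already known to be poor in pituitary transcripts, and the mean level includes these genes, so the 7 flags are not separate evidence. At the low end of the spring fish, fish 3 of New moon May stood apart in gh1 (0.693) and in the vitellogenin-like gene LOC101062271 (0.709), and fish 2 of that date in LOC101061585, LIM domain kinase 1 (0.724). At the high end, fish 1 of New moon May stood apart in rho (0.973), asmt (0.972), LOC101065059, serotonin N-acetyltransferase-like (0.881), and LOC101063749, bHLHe40-like (0.814).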

How the results depend on the processing

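The count of genes differing between the tides was 0 in the main fit and stayed at 0 with each of the 12 fish left out in turn, with 3 other scalings, another pseudocount, 2 other filters, no intensity trend and either covariate. It was 279 with the 8 dates fixed, 65 with the dates fixed and fish 2 of Waxing moon May left out (an alternative added after seeing the data), 6 with the 12 fish taken as independent (0 when fish 2 of Waxing moon May was also left out, added after seeing the data; smallest adjusted p 0.0625 in limma), and 7 without the date Waxing moon May. The count between the tides was 0 without New moon May, without Full moon June and without Waning moon June. Leaving out a date leaves a single date for its tide, so these fits cannot tell the tide from that date. With the dates fixed only the spread within dates enters, and with the fish taken as independent the dates do not enter. The count of genes whose tide difference differed between the cycles was 0, 117 with the dates fixed and 103 with them fixed and that fish left out. With the replicate number as a block both counts were 0. The deviations of same-numbered fish had correlations of -0.303 to 0.218 (median -0.025), over 0.1 in 5 of 18 pairs. Fish of other numbers had a median of 0.005. These values do not settle whether the numbers pair the fish. The difference in pituitary hormone level ranged from 0.830 to 2.37 when each fish was left out, lowest without fish 2 and highest without fish 1 of Waxing moon May.

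Of 2577 values of named genes under other settings, 2479 kept direction and side of the threshold. Another 83 passed it and 15 had the opposite sign. No gene passed in the main fit, so the 15 could only be in genes that did not pass. Of the 83, 43 came from the fit with the dates fixed and 33 from that fit without fish 2 of Waxing moon May. A further 6 came from the 12 fish taken as independent and 1 from the fit without the date Waxing moon May. Without Waning moon June the log2 difference was -0.14 for gnrh1, 0.0149 for dnajc6, -0.16 for LOC101079150 and -0.26 for emp2. Without New moon May it was 0.003 for dnajc6 and -0.16 for LOC101079150, without Full moon June 0.33 for per1 and 0.0715 for LOC101076758, and without Waxing moon May 0.028 for LOC101067285 and 0.0226 for LOC101076758. With the library sum as a covariate it was -0.0795 for LOC101079150 and -0.14 for emp2, and with libraries scaled to one sum -0.0162 for LOC101071379. With the pituitary level as a covariate it was -0.72 for prl and -0.0793 for pomc. Both genes are part of that covariate, and the differences of its member genes cancel out on average by construction. Not all of them could therefore keep a positive sign. The cause of the other sign changes was not tested. Of 930 list medians, 58 moved by more than the spread within dates. Without read counts, the precision of genes at low FPKM is unknown.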
